A study of Mus musculus with 2 samples.

Results

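Transcripts of leukocytes, macrophages and MHC class II presentation were followed in the ureter, the muscular tube that drains the kidney into the bladder. The gene set held 32 names, and a gene was taken when the array files listed a probe under that name. This found 31 of the 32 genes, out of 31791 gene names on the arrays, and the brightest of the probes of a gene by processed signal stood for it. All 31 were well above background in all 4 RNAs measured, so that none was lost to the filter on dim probes.

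The arrays compared RNA labelled cDKO with control RNA of NMRI mouse embryos at stage E18.5. The cDKO embryos carried 1 Cre allele at Tbx18 and 2 floxed alleles each of Tbx2 and Tbx3. The controls carried no Cre allele, had both Tbx18 alleles intact and at least 1 floxed allele of each of the other genes. Tbx18 is a gene of the ureteric mesenchyme, so that Cre is driven there and not by a leukocyte gene. There were 2 arrays with both genotypes on each, 1 of male RNA with the labelled cDKO RNA in red, and 1 of female RNA with the labelled cDKO RNA in green. Sex, dye orientation and replicate number therefore cannot be told apart, and the number of embryos behind an RNA is not stated in the labels. Each value below is a mean log2 ratio of labelled cDKO over control with its SD over n = 2 arrays. The p-values speak to no spread beyond these arrays. For a single gene, the variance used came mainly from the whole set of probes and less from its own 2 ratios.

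Macrophages are the main leukocytes of embryonic organs, where they clear dying cells and debris. They depend on the receptor CSF1R, carry Fc and pattern receptors that signal through the adaptors TYROBP and FCER1G, and secrete the C1q proteins of complement. MHC class II molecules are pairs of an alpha and a beta chain that show peptides to T cells. They are assembled on the invariant chain CD74, and their genes share promoter elements known as the X box and the Y box.

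The class II genes hold the only member that passed the test, so the sequences that its value rests on are shown first. The only H2-Aa probe, with 1 spot per array, lies on mm9 at chr17:34421285-34421344, on the minus strand. Whether the RNA of these embryos matches it at every base was not tested. Read from its first base it gives 20 codons with 0 stops, while its other frames hold 3 and 1 stops.

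H2-Aa probe: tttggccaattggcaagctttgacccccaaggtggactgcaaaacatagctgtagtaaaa

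H2-Ab1, the beta chain of the same molecule, was read by 2 probes at chr17:34406296-34406355 and chr17:34406305-34406363 on mm9, both on the plus strand. They are shifted by 9 bases, share 51 bases and differ at 1 of them, so they are a near repeat of 1 measurement. A stretch of 30 bases is shown from each, with the differing base in capitals. Counted from the first base of the stretch, the difference from the brighter to the dimmer probe is T21C.

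H2-Ab1 brighter probe: agattacaaataaacgagacTcagactctg

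H2-Ab1 dimmer probe: agattacaaataaacgagacCcagactctg

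Promoters of H2-Aa and H2-Eb1 are shown because these genes share their regulatory elements but not their ratios. Both are RefSeq sequences of GRCm38.p6, the 150 bases before the start of the gene, at chr17:34287824-34287973 on the minus strand and chr17:34305717-34305866 on the plus strand. Capitals mark matches to CTNGCAAC, the letters these promoters have at their X box, and to CTGATTGG, the letters at their Y box. The letters were taken from these promoters, so that they match them is no finding. Both strands were searched, and the motifs do not overlap.

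H2-Aa promoter: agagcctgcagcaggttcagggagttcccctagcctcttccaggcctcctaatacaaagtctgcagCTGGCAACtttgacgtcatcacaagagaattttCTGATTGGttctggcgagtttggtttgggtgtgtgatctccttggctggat

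H2-Eb1 promoter: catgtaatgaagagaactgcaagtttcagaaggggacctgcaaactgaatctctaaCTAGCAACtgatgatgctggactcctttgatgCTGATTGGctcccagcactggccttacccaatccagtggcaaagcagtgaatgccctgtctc

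The CTNGCAAC match began 84 bases before the start in H2-Aa and 94 bases before it in H2-Eb1, and the CTGATTGG match 51 and 62 bases before it. Between them lay 25 bases in H2-Aa and 24 in H2-Eb1. Over all 32851 promoter windows of 300 bases, 3.42% held CTNGCAAC, 4.1% held CTGATTGG and 0.18% held both. H2-Eb2, a further class II gene, also held both, while H2-Oa held only CTGATTGG and H2-Ob only CTNGCAAC. Neither was found for H2-DMa, H2-DMb1, H2-DMb2, Ifi30, Rfx5, Rfxank and Cd80. H2-Ab1 and Cd74 were not among the class II genes searched. A match describes these letters and is not a measured binding site.

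The share of gene spots above background ran from 72.1% to 81.6% over the 4 RNAs, and 0 spots of members were saturated. The genes targeted in the mutant, Tbx2 and Tbx3, had higher and not lower ratios in the labelled cDKO RNA, with means of 0.74 ± 0.42 and 0.66 ± 0.16 (SD, n = 2). Whether their probes lie in the deleted parts is not known here, so the probes do not check the labels, and the mutant RNA is called by its label. In the RNA labelled cDKO of the female array the Y-linked transcripts Ddx3y and Eif2s3y stood at 12.6% and 9.52% of their signals in the labelled male cDKO RNA. Transcripts of liver were present in every RNA and highest in the labelled female cDKO RNA. All 12 liver markers were higher than in control on the female array, with a median of 2.70, while the male median was -0.39. Summed over the 12 probes the processed signals were 48418 in the male and 29296 in the female control RNA, 34638 in the male and 124874 in the labelled female cDKO RNA. Ureter markers were present in every RNA; 10 of 11 smooth muscle markers were called lower in the labelled cDKO RNA (median -2.19), 0 of 15 urothelium markers were called and 8 of 12 fibroblast markers were called higher (median 0.77). The part of these shifts in the values of the members was not tested. Many results are therefore given for both arrays, and others only as the mean of both. Where both are given, the male array alone is the result without the labelled female cDKO RNA.

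Members were called at a rate near that of all genes. Of 31 members 1, H2-Aa, was called lower and 0 were called higher (limma, Benjamini-Hochberg adjusted p under 0.05 over all probes), where 4.45% of 23359 genes were called, 2.18% higher and 2.27% lower. Those were 510 higher and 530 lower genes, and 135 and 210 with the processed signals. At the share of 4.45%, a list of a few genes would hold few calls or none, so 0 calls are no result about such a list. On simulated data the share of false calls exceeded the threshold, so adjusted p-values may be too small. At an unadjusted p under 0.05 there were 5 members, a share near the 16.0% of all genes in either direction. These members were all lower in the labelled cDKO RNA. With an intensity trend in the variance 2 members were called, the second being Lyz2, and with the processed signals, under median centring and in the values the authors deposited there were 0. The median log2 ratio of the members was -0.16, beside 0.0047 over all genes. It was -0.069 for the male array alone (0.0036 over all genes) and -0.28 for the female array alone (0.019 over all genes). The largest shift of a member after H2-Aa was a log2 ratio of -0.54, and the highest was 0.27. In whole ureters fewer cells of a type and less RNA per cell cannot be told apart.

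**Figure D1:**
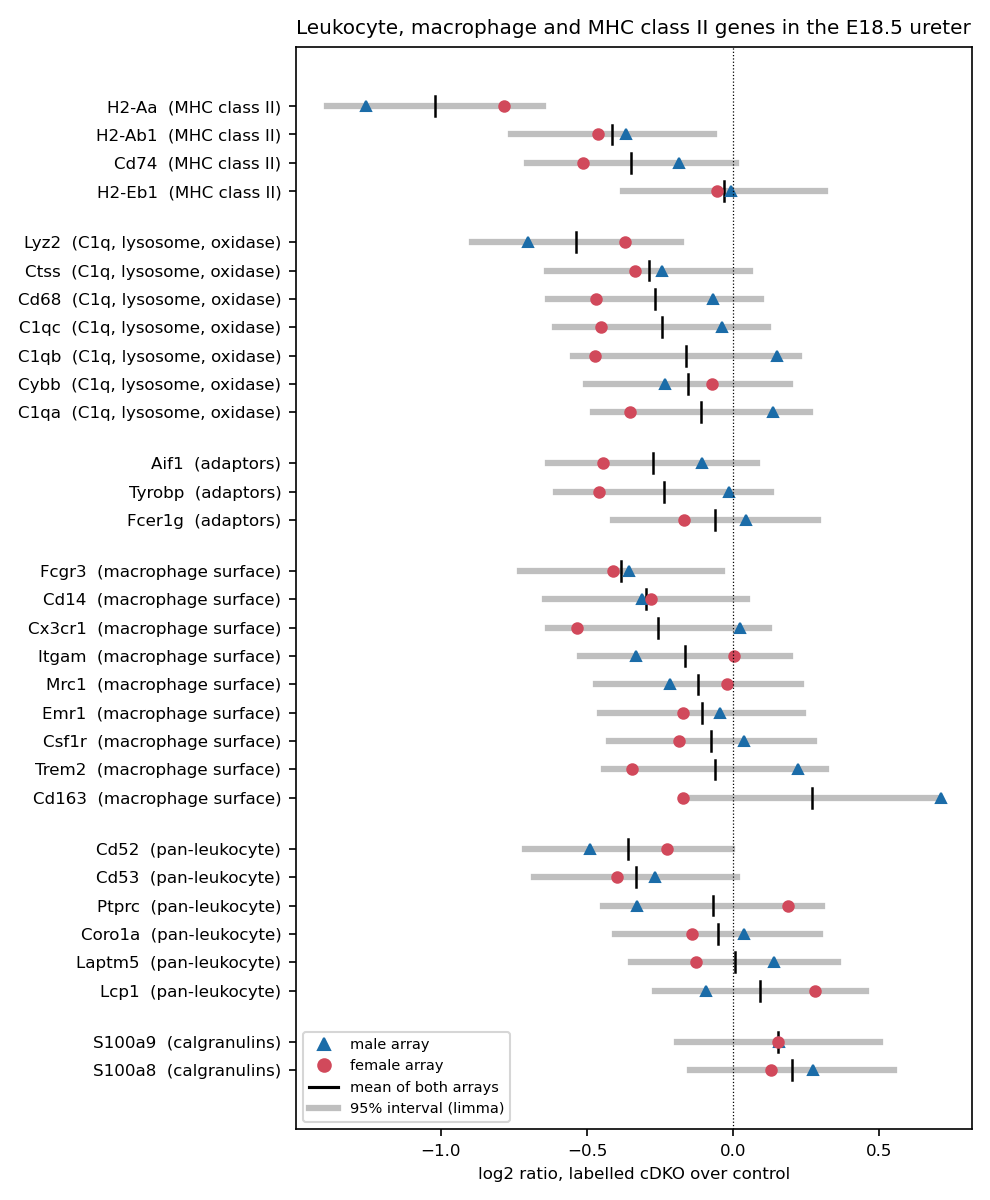
Log2 ratio of labelled cDKO over control for each of the 31 members, grouped by role, with the male array as triangles, the female array as circles, their mean as a black tick and the 95% interval of the mean from limma as a grey bar. H2-Aa lies apart at -1.26 and -0.79, while most intervals span 0 and most female values lie left of the male ones.

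H2-Aa, the class II alpha chain, was the member with the largest difference. Its processed signal was 847 in male control and 330 in labelled male cDKO RNA, and 378 in female control and 198 in labelled female cDKO RNA. The labelled cDKO RNA was the lower one on each array, and the cDKO signals did not overlap the control signals. The log2 ratio was -1.26 (male array) and -0.79 (female array), a mean of -1.02 ± 0.33 (SD, n = 2), which is 2.03-fold lower (95% interval of the log2 ratio from -1.39 to -0.65; limma adjusted p = 0.00208). The direction held in every setting tried, but the call was lost with the processed signals (adjusted p = 0.079), under median centring (0.264) and in the deposited value table (0.314), with adjusted p-values of 0.000312 to 0.314 over all settings.

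The partners of H2-Aa were lower on both arrays without passing the test. H2-Ab1, the beta chain, had signals of 616 and 447 in male control and labelled cDKO RNA and of 308 and 217 in the female pair, a mean log2 ratio of -0.41 ± 0.068 (SD, n = 2; adjusted p = 0.215). Its second probe, with the 1-base difference shown above, gave -0.38 on both arrays. Cd74, the invariant chain, had signals of 335 and 276 in the male pair and 226 and 151 in the female pair, with ratios of -0.18 and -0.51.

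H2-Eb1, the beta chain of the other class II molecule, was near 0. Its signals were 361 and 341 in male control and labelled cDKO RNA and 204 and 190 in the female pair, a mean log2 ratio of -0.031 ± 0.036 (SD, n = 2; 95% interval from -0.38 to 0.32). The upper bound of the H2-Aa interval, -0.65, lies below the lower bound for H2-Eb1, though the difference between these genes was not tested. All 4 class II members were lower on both arrays, as were 28.0% of all genes, and their median was -0.38.

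**Figure D2:**
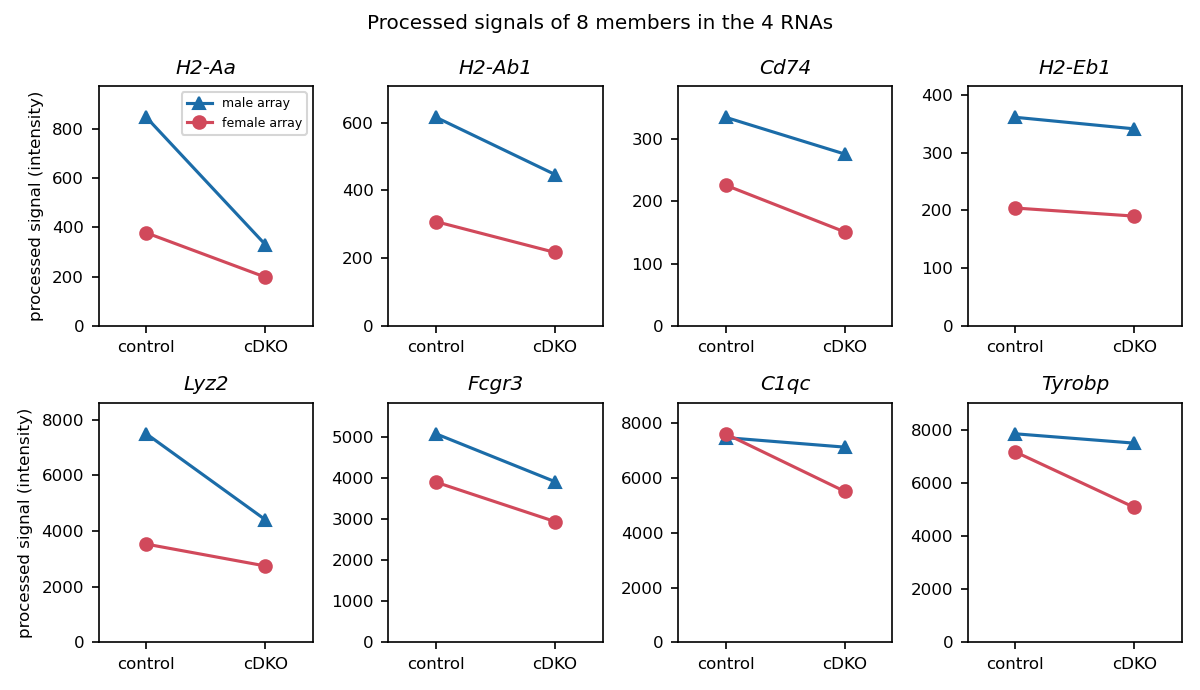
Processed signal intensity of 8 members in control and labelled cDKO RNA, 1 line per array (male triangles, female circles), with a linear axis from 0 in each panel because signals of different probes are not comparable. H2-Aa falls from 847 to 330 and from 378 to 198, while H2-Eb1 is nearly level on both arrays, and C1qc and Tyrobp differ more on the female than on the male array.

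Other genes of class II presentation gave 0 calls among 11 measured of 14 listed, where 4.45% of all genes were called. Their median was -0.041 (0.017 under median centring). They include Ciita, the transactivator of class II promoters, at a mean log2 ratio of -0.047 ± 0.068 (SD, n = 2). Its probe was dim, with signals of 26.6 to 30.7, and the offset of 50 draws ratios of such probes towards 0. Rfxank, a subunit of the complex that binds the X box, had -0.45 (adjusted p = 0.172), and Cd40, a receptor of antigen-presenting cells, had -0.40 (adjusted p = 0.273). H2-DMa and H2-DMb1, whose product loads peptides onto class II molecules, had means of 0.31 and 0.10. H2-DMa was at 0.54 (male array) and 0.092 (female array), and H2-DMb1 at 0.31 and -0.11. H2-DMb2, H2-Ob and H2-Eb2 did not pass the filter on dim probes.

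Among effector genes, Lyz2, the lysozyme of macrophages and neutrophils, came nearest to a call. Its signals were 7488 and 4403 in male control and labelled cDKO RNA and 3529 and 2744 in the female pair. It was lower in the labelled cDKO RNA of each array, although the male cDKO signal lay above that of the female control. The mean log2 ratio was -0.54 ± 0.23 (SD, n = 2; 95% interval from -0.89 to -0.18; adjusted p = 0.101), and with an intensity trend in the variance the adjusted p was 0.0328. Its close relative Lyz1 may be read by the same probe, so its identity is uncertain here.

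The 3 C1q genes, which encode the chains of the complement starter C1q, lie side by side on mm9 between bases 136436578 and 136452468 of chromosome 4. C1qa had signals of 2209 and 2422 in male control and labelled cDKO RNA and of 2186 and 1714 in the female pair. C1qb had 2917 and 3520 in the male pair and 3144 and 2245 in the female pair. C1qc had 7482 and 7134 in the male pair and 7621 and 5517 in the female pair. All of them were lower in the labelled cDKO RNA of the female array, at -0.35, -0.47 and -0.45, but not of the male array, where the ratios were 0.14, 0.15 and -0.038.

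The C1qc probe was spotted 10 times per array, which shows the technical error. Its spots ran from -0.12 to 0.026 for the male RNAs (SD 0.043) and from -0.48 to -0.42 for the female RNAs (SD 0.019). These SDs cover repeat spots of the same RNAs and not the spread between embryos. The test, which takes the arrays as replicates, gave a mean of -0.25 ± 0.29 (SD, n = 2; adjusted p = 0.561).

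Cd68, a lysosomal protein of macrophages, followed the C1q genes with -0.069 (male array) and -0.47 (female array). Ctss, a protease that trims the invariant chain in antigen-presenting cells, was at -0.24 and -0.33. Cybb, the catalytic subunit of the phagocyte oxidase, was dim, with signals of 60.7 to 99.2, and had a mean of -0.15 ± 0.11 (SD, n = 2). Of 5 other oxidase subunits 0 were called, and Ncf1 and Cyba had means of 0.26 and 0.19. Ncf1 was at 0.27 (male array) and 0.26 (female array), and Cyba at 0.47 and -0.084.

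The adaptor genes Tyrobp and Fcer1g, and Aif1, which was grouped with them here, gave 0 calls, where 4.45% of all genes were called. Tyrobp, which couples TREM2 and other receptors to kinases, had signals of 7851 and 7499 in male control and labelled cDKO RNA and of 7170 and 5081 in the female pair, with ratios of -0.014 and -0.46. Aif1, an actin-binding protein of macrophages also known as IBA1, had ratios of -0.11 and -0.44. Fcer1g, the gamma chain of Fc receptors, had 0.045 and -0.17. These 3 genes had ratios below 0 on the female array, and the difference between the arrays was not tested. Among 14 genes of kinase signalling downstream of such adaptors 0 were called (median 0.064), with Inpp5d, a lipid phosphatase of leukocytes, at 0.44 ± 0.39 and the kinase gene Syk, listed under an older symbol, at 0.29 ± 0.076 (SD, n = 2).

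Macrophage receptors gave 0 calls among 9 members, where 4.45% of all genes were called. Their median of -0.12 became 0.057 under median centring. Csf1r, the growth factor receptor that macrophages need, had signals of 10664 and 10683 in male control and labelled cDKO RNA and of 9026 and 7761 in the female pair. The male RNAs were level, the labelled female cDKO RNA was lower, and the mean log2 ratio was -0.074 ± 0.16 (SD, n = 2; 95% interval from -0.43 to 0.28). That interval rests mostly on a variance pooled over probes and not on the spread of this gene. Its other 2 probes had means of -0.12 and -0.032. Emr1, the gene of the F4/80 antigen now named Adgre1, was at -0.11 ± 0.091, and its 2 probes differed by 0.0028 in the mean.

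Cx3cr1 and Trem2 had female ratios below 0 and male ratios above 0, as had Csf1r and Cd163. Cx3cr1, the fractalkine receptor, had signals of 2119 and 2116 in the male pair and of 2075 and 1456 in the female pair, with ratios of 0.023 and -0.53. Trem2, a lipid receptor that signals through TYROBP, had signals of 945 and 1139 in the male pair and of 1021 and 814 in the female pair, with ratios of 0.22 and -0.35.

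Fcgr3 and Cd14 were lower by a like amount on both arrays. Fcgr3, a low-affinity Fc receptor, had signals of 5084 and 3917 in male control and labelled cDKO RNA and of 3905 and 2945 in the female pair, a mean log2 ratio of -0.38 ± 0.039 (SD, n = 2; adjusted p = 0.259). Cd14, a co-receptor for bacterial lipopolysaccharide, had -0.31 and -0.28. Itgam, the integrin chain CD11b, and Mrc1, the mannose receptor, showed the other order, with male ratios of -0.33 and -0.22 and female ratios of 0.0035 and -0.021. The other 2 Itgam probes were dim and had 0.065 and -0.11 on the male array, so the lower male value rests on the brightest probe. Cd163, a haemoglobin scavenger receptor, was dim, with signals of 79.8 to 163, and had ratios of 0.71 and -0.17.

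Pan-leukocyte genes had 0 of 6 measured members called, where 4.45% of all genes were, and a median of -0.062 (0.024 under median centring). Ptprc, the CD45 phosphatase of all leukocytes, had signals of 266 and 196 in male control and labelled cDKO RNA and of 117 and 139 in the female pair. Its ratios ran in opposite directions, at -0.33 and 0.19. Cd52, a small surface glycoprotein, had -0.49 and -0.23, and Cd53, a tetraspanin, had -0.27 and -0.40.

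Coro1a and Lcp1, which bind actin in leukocytes, had means of -0.053 and 0.094, and Laptm5, a lysosomal membrane protein, had 0.0058. The 2 Lcp1 probes differed by 0.33 on the male array, where the brighter gave -0.094 and the dimmer 0.23. Spi1, the gene of the transcription factor PU.1, was not listed under that name. The probe of its RefSeq accession carries the older symbol Sfpi1 and had signals of 112 and 201 in the male pair and of 169 and 138 in the female pair, with ratios of 0.61 and -0.22.

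The calgranulins S100a8 and S100a9, which form the calcium-binding dimer of neutrophils, were the only members above 0 on both arrays. S100a8 had signals of 1185 and 1477 in male control and labelled cDKO RNA and of 1077 and 1182 in the female pair, a mean log2 ratio of 0.20 ± 0.10 (SD, n = 2; adjusted p = 0.643). S100a9 had signals of 4254 and 4612 in the male pair and of 3445 and 3829 in the female pair, a mean of 0.15 ± 0.0018 (SD, n = 2; adjusted p = 0.754). The difference was small, and 31.8% of all genes were higher on both arrays.

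The arrays differed in how many members lay below 0. On the female array 26 of 31 members were lower in the labelled cDKO RNA, where 46.7% of all genes were, and 15 of 31 had a log2 ratio of -0.3 or less, where 10.8% of all genes did. On the male array 20 of 31 were lower, against 49.5% of all genes, and 8 were at -0.3 or less, against 16.8%. In all, 17 members were lower on both arrays (28.0% of all genes), 2 were higher on both and 12 lay on opposite sides of 0 (40.3% of all genes). For 22 of 31 members the female ratio lay below the male ratio, as it did for 53.9% of all genes. The cut of -0.3 was chosen after the values were seen. With 1 array per sex, this difference has no test. Liver markers gave signal in every RNA, with the largest sum in the labelled female cDKO RNA, which also held Y-linked transcripts.

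**Figure D3:**
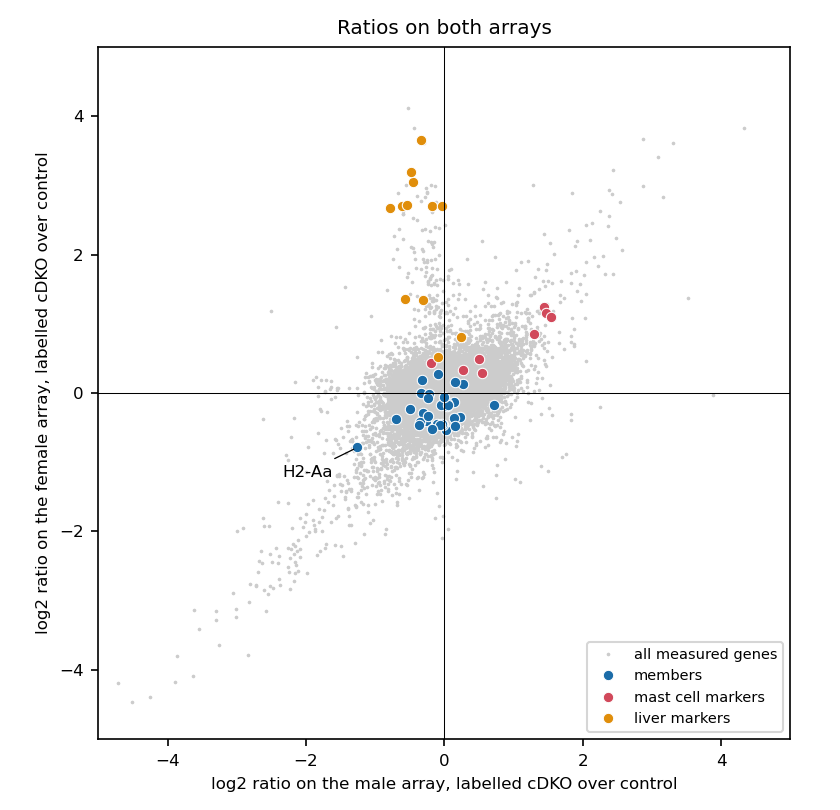
Log2 ratio on the male array (horizontal) against the female array (vertical) for all 23359 genes in grey, the 31 members in blue, the mast cell markers in red and the liver markers in orange. Members lie around 0 and mostly below the horizontal axis, with H2-Aa to the lower left, mast cell markers lie to the upper right, and liver markers are high on the female array only.

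Of 39 measured macrophage genes of 42 listed beyond the members, 2 were called, 1 higher and 1 lower, and the median was -0.079. Only the lower one is described here. Timd4, the phosphatidylserine receptor TIM-4 of resident macrophages, had signals of 543 and 61.4 in male control and labelled cDKO RNA and of 51.5 and 24.5 in the female pair. The male control stood far above the other RNAs, and the mean log2 ratio was -1.43 ± 1.11 (SD, n = 2; adjusted p = 0.00366), which robust eBayes put at an adjusted p of 0.583. The call was also lost with the processed signals, at an adjusted p of 0.161.

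The growth factors of macrophages gave 0 calls among 4 measured of 5 listed. The CSF1R ligands Csf1 and Il34 had mean log2 ratios of 0.19 and 0.35, and Tgfb1, a cytokine of many cells, had 0.62 (adjusted p = 0.0641). Its ratios were 0.86 (male array) and 0.37 (female array). Tgfb1 passed with the filter in both channels (adjusted p = 0.0368), robust eBayes (0.037) and the mean of its probes (0.0418).

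Mast cells, the granule-laden leukocytes of connective tissue, gave the other pattern. Of 8 measured mast cell markers of 10 listed, 4 were called higher and 0 lower, where 2.18% of all genes were called higher. Their median was 0.79 (male array 0.92, female array 0.68), and 0.50 with no filter on dim probes. Ms4a2 did not pass that filter. Cpa3, the mast cell carboxypeptidase, had signals of 1664 and 4758 in male control and labelled cDKO RNA and of 3027 and 7115 in the female pair, so that it rose by 1.34 ± 0.13 (SD, n = 2; adjusted p = 0.000102). Hdc, the enzyme that makes histamine, had signals of 229 and 751 in the male pair and of 357 and 806 in the female pair, a rise of 1.32 ± 0.31 (adjusted p = 0.000192).

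The chymase Cma1 rose by 1.32 ± 0.22 (SD, n = 2; adjusted p = 0.000146) and the tryptase Tpsb2 by 1.07 ± 0.31 (adjusted p = 0.00129). In each of these 4 genes both labelled cDKO RNAs stood above the control RNA of their own array. Mcpt4, Gata2, Tpsab1 and Fcer1a had means of 0.41, 0.50, 0.30 and 0.12 without a call. Summed over the 8 probes the signals were 15431 and 17117 in the control RNAs and 27788 and 28778 in the labelled cDKO RNAs. Gata2, which was not called and is not restricted to mast cells, gave most of the control sums, with 11847 and 10521. The calls numbered 3 with the processed signals, 5 with an intensity trend, 0 in the deposited value table and 4 in every other setting with a test. The difference between these markers and the members was not tested.

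Markers of other leukocytes are given here beside the 4.45% of all genes that were called. Among 15 measured neutrophil and granulocyte markers 1 was called, Mmp9, a gelatinase that other cells also make, which fell by 1.12 ± 0.43 (SD, n = 2; adjusted p = 0.00137), and the median was 0.12. The Mmp9 call was lost under median centring (adjusted p = 0.0682) and in the values the authors deposited (0.276). Lists of T and NK cells, B cells and dendritic cells had 0 of 10, 0 of 4 and 0 of 6 measured genes called, with medians of -0.054, -0.033 and -0.087. Their largest mean ratios were -0.41 for Cd7 and -0.29 for Gzma, -0.14 for Cd22, and 0.39 for Batf3. The B cell genes Ms4a1, Cd79a, Pax5 and Blk did not pass the filter on dim probes, nor did the T cell genes Cd3d and Cd3g.

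**Figure D4:**
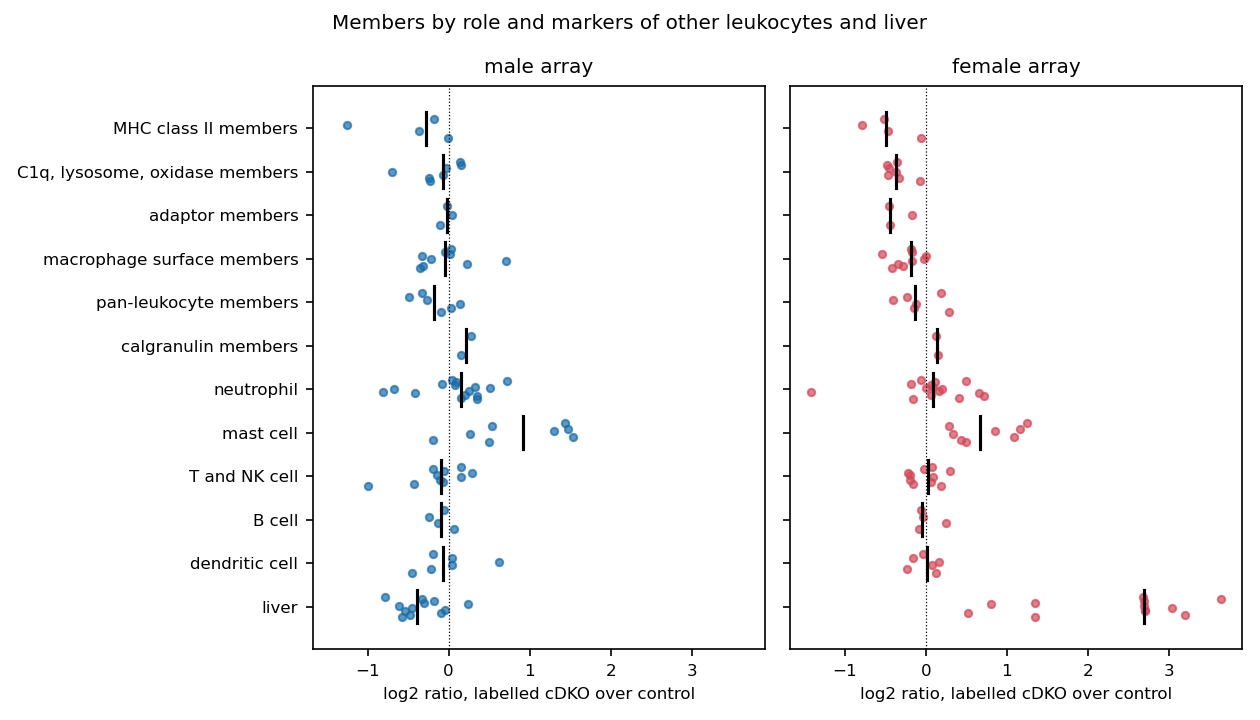
Log2 ratios of labelled cDKO over control for the members by role and for markers of other leukocytes and of liver, on the male array (left) and the female array (right), 1 point per gene with the list's median as a black bar. The mast cell median is 0.92 and 0.68, and the liver median is -0.39 (male) and 2.70 (female).

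Some markers of other tissues were also called. Kidney markers had 7 of 11 measured genes called higher (median 1.18) and endothelium markers 3 of 12 (median 0.37), where 2.18% of all genes were. The endothelium calls, Cdh5, Eng and Plvap, were all lost with the processed signals (limma adjusted p of 0.305, 0.226 and 0.131). Cdh5 and Eng were also lost under median centring (0.357 and 0.258), and Plvap as the mean of its probes (0.08). All 3 were lost in the deposited value table (0.477, 0.434 and 0.38). The red blood cell list had 1 of 12 called higher, Slc4a1 at 0.62 (adjusted p = 0.044), and a median of 0.46 (male array 0.47, female array 0.29). The Slc4a1 call was lost in 6 other settings, with adjusted p of 0.0566 to 0.735. The nerve and Schwann cell markers had 0 of 9 called and a median of 0.13. Their part in the values of the leukocyte genes was not tested.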

How the data were processed

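Total RNA of ureters was measured on 2 Agilent 2-colour arrays, which the authors scanned and quantified with Agilent Feature Extraction 10.7.3.1, per the submitters' processing notes. The deposited files give the mean and background intensity of each spot, and a processed signal intensity that the authors' software background-subtracted and dye-normalized. The deposited log10 ratio was not used. The deposited 0 or 1 flags (unit other) mark spots as above background, saturated or outliers. The value table the authors deposited holds a score whose scale is not stated; it equalled the signed fold change of cDKO over control for 100% of spots with both processed signals over 50 (within 0.01 log2), with a median of 1 on both arrays. Probe coordinates are on mm9, per the file headers.

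Background was removed from the mean intensities by normexp with an offset of 50, and dyes were balanced by loess per array with weight 0 for control and outlier spots (limma 3.58.1 under R 4.3.3), and spots of a probe were averaged. Probes well above background in most spots in the cDKO RNA or the control RNA on both arrays were kept, 29274 of 39429. Ratios were turned to cDKO over control and their mean was tested against 0 (lmFit, eBayes, two-sided, Benjamini-Hochberg over probes, threshold 0.05), with 1 residual and 13.9 prior degrees of freedom. The test therefore rests mostly on a variance pooled over probes. A sign-flip permutation of 2 arrays cannot go below p = 0.5. The fit was tested on simulated data that had the moderated variance of each probe. It recovered nearly all changed probes, but the share of false calls lay above the 0.05 threshold, so adjusted p-values may be too small. The number of arrays limits the precision.

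Genes are named as in the files. The members, lists and settings were chosen with earlier results of these data known. Named are all members and, of each other list, up to 3 called genes with the largest change in 1 direction on both arrays, or up to 2 genes where none was called; other genes named were chosen after their values were seen. Some genes of the lists are not reported here.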

Additional observations from a re-analysis of the deposited data

Results flagged for a closer look

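The liver markers moved in opposite directions on the arrays, with a median log2 ratio of -0.39 (male) and 2.70 (female). Afp was at -0.33 and 3.65 and Apoh at -0.48 and 3.20. Among the members Trem2 was at 0.22 (male) and -0.35 (female), both beyond the 0.2 set for such a difference. With 1 array per sex and dye orientation these differences were not tested.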

How the results depend on the processing

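All genes gave 510 higher and 530 lower calls, against 135 and 210 from the processed signals, 163 and 157 after median centring, 0 and 0 in the deposited value table, and 932 higher with an intensity trend. Members called lower numbered 0 in the first 3 of these settings and 2 with the trend. The members' median log2 ratio lay between -0.28 and -0.069 with either array left out, and was -0.017 under median centring, where the median of all genes was 0.066. There 10 members that were not called changed sign, to 0.15 for Coro1a, 0.082 for Csf1r, 0.085 for Emr1, 0.025 for Itgam, 0.057 for Mrc1, 0.092 for Trem2, 0.10 for Fcer1g, 0.083 for C1qa, 0.029 for C1qb and 0.040 for H2-Eb1; Laptm5 was at -0.022 as the mean of its probes. The cause was not tested. No paired analysis was possible because pairing of the genotypes is already built into the ratio of each array, which is what was tested. Probes near background limit Cybb and Cd163.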

Other observations

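Genes of interferon response and MHC class I presentation were level for the most part, with a median log2 ratio of -0.023. Of 18 genes 2 were called lower and 0 higher, where 2.27% of all genes were called lower and 2.18% higher. Nlrc5, the transactivator of class I genes, had processed signals of 293 and 91.3 in male control and labelled cDKO RNA. In the female pair they were 193 and 80.7, and the gene fell by 1.13 ± 0.10 (SD, n = 2, limma adjusted p = 0.000526). The Nlrc5 call was lost under median centring (adjusted p = 0.0783) and in the deposited value table (0.239). Genes that Nlrc5 is known to act on had mean ratios of -0.093 for B2m, 0.052 for H2-K1, 0.072 for Tap1 and -0.027 for Psmb9 without a call. Bst2, a membrane protein that tethers virus particles, fell by 0.73 ± 0.17 (SD, n = 2, limma adjusted p = 0.0171). That call was lost from the processed signals (0.154), in the deposited value table (0.346) and after median centring (1).

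Among complement genes other than C1q, C3, the central complement protein, which liver makes in quantity, was at -1.44 (male array) and 1.53 (female array).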
